A study of Mus musculus with 4 samples.

Results

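The genes described here encode lysosomal proteases, proteins that work beside them in the lysosome, and the proton pump that keeps the lysosome acid. They number 38 of the 31053 genes in the count tables and were taken by symbol, with no threshold on a measured value. The set comprises the cathepsins Ctsa, Ctsb, Ctsc, Ctsd, Ctse, Ctsh, Ctsk, Ctsl, Ctss and Ctsz with legumain (Lgmn), the membrane proteins Lamp1, Lamp2, Cd63 and Cd68, 8 hydrolases and lipid-handling proteins (Hexa, Gusb, Glb1, Naglu, Lipa, Psap, Npc1 and Npc2), the transcription factor Tfeb, and 14 subunits of the vacuolar H+-ATPase (V-ATPase), 6 from its V0 sector and 8 from its V1 sector. All 38 are annotated as protein-coding in mm10, where they lie on 20 chromosomes.

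CD45+ cells, which carry the surface antigen shared by leukocytes, were sorted from the spinal cord of 3-month-old C57BL/6 mice and sequenced by 10x Chromium 3′ single-cell RNA sequencing. There were 4 libraries, 1 per group. In the standard sham and ActD sham groups the spine was opened by laminectomy at T10 and the cord was not struck, whereas the mice of the other 2 groups received a moderate contusion at T10 and were sampled at 3 or 14 days post-injury (dpi). Actinomycin D (ActD), which blocks transcription, was present while the ActD sham, 3 dpi and 14 dpi cords were dissociated and was left out for the standard sham cord. All groups were of this strain, the labels name no transgene, and the cells of a library cannot be assigned to single animals. The paper states that male and female mice were used for the single-cell sequencing. The labels do not give the sexes in a library, so a part of sex in a difference was not tested. With 1 library per group there is no spread between replicates and no test was possible: the 95% intervals given below cover counting error only, and a difference between groups is a difference between these libraries.

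Lysosomes degrade what a phagocyte engulfs as well as worn-out parts of the cell itself. The V-ATPase pumps protons inward, its cytosolic V1 sector splitting ATP and its membrane-embedded V0 sector carrying the protons, and the acid medium lets cathepsins mature from inactive precursors and work. Microglia, the resident macrophages of the central nervous system, and macrophages that enter after injury both take up myelin and cell debris in the damaged cord, and cathepsin S and cathepsin L also take part in loading antigen onto MHC class II.

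After the study's own cell filters and removal of doublets, 5035 cells of standard sham, 2135 of ActD sham, 8214 at 3 dpi and 9078 at 14 dpi were kept, out of 2439 to 11631 barcodes and 27447471 to 129935880 unique molecular identifiers (UMIs) per library. A UMI of Ptprc, which encodes CD45, was found in 84.1% to 94.8% of them. Any pair of libraries shared 3 to 36 cell barcodes. Cell classes were named from marker genes. The 12 microglial markers summed to 12044 CPM in the microglia of standard sham, 19187 in ActD sham, 5277 at 3 dpi and 8198 at 14 dpi. In macrophages they summed to 1507, 3854, 466 and 4792 CPM in the same order. As these markers also served to name the clusters, the sums are descriptions. Microglia numbered 2635, 1616, 771 and 3670 cells in standard sham, ActD sham, 3 dpi and 14 dpi, and macrophages 127, 142, 3635 and 144. Sham and 14 dpi macrophages were each 1 cluster led by Mrc1 and Pf4, genes of macrophages that line the borders of the nervous system, whereas those at 3 dpi formed 5 clusters that scored highest for markers of injury macrophages such as Arg1 and Fn1. The border markers, 9 in number, nevertheless summed to 6836 CPM in the 3 dpi macrophages, against 6128 in standard sham, 8426 in ActD sham and 4726 at 14 dpi, and 1 of the 5 clusters was led by Cbr2 and Mrc1. Monocytes (468 and 391 cells) and dendritic cells (568 and 457 cells) were named at 3 and 14 dpi only.

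Levels are given as CPM, that is UMIs of a gene summed over the cells of a class, per 1e+06 UMIs of those cells, and 4 levels in a row stand for standard sham, ActD sham, 3 dpi and 14 dpi, in that order. A pair of log2 differences after them stands for 3 dpi and 14 dpi over ActD sham, each relative to the median gene. A gene was tested in a comparison if both libraries together held at least 50 of its UMIs in that class, and it was called higher or lower if its log2 ratio lay at least 1 from the median ratio of all genes tested. That median was itself below 0, at -0.55 for 3 dpi and -0.51 for 14 dpi over ActD sham in microglia, and at -0.48 and -0.05 in macrophages, so calls are relative to it. A count of calls is set beside the share of all genes called. Counts under other groupings, filters or scalings, or without centring, are given without that share. A change in the members cannot be told there from a change in all genes. Comparisons with sham share the ActD sham library, so a gene that is low in that library has high ratios at both times. A library's class holds a mixture of cells, so fewer cells with a gene and less RNA per cell cannot be told apart in its CPM. Reads of Atp6v0c and Cd63 are uncertain, because 2 pseudogenes of the former and 1 of the latter are annotated in the genome and have no row of their own in the tables.

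Promoters are shown first, since many lysosomal genes carry in theirs a short palindrome-like element, known by the name CLEAR, that TFEB binds. RefSeq promoters (GRCm38.p6, 250 bases before and 50 after the start of transcription) were found for 29 of the 38 genes. The letters CACGTGAC, the core of that element, occurred on either strand in 8 of those 29 genes (27.6%) and in 689 of 27025 genes with a promoter in the same table (2.55%). The 8 were Ctsa, Ctsd, Lgmn, Lamp1, Glb1, Naglu, Atp6v0b and Atp6v0d1. The shorter E-box CACGTG, which the longer letters contain, occurred in 11 of the 29 (37.9%) against 8.09% of all genes. Because the element is known from lysosomal genes, these shares only describe the set. A protease, a membrane protein and a pump subunit with the element are printed, followed by Ctss as a gene in which it was not found; capitals mark CACGTGAC on either strand. Ctsd lies on the minus strand (chr7:142387778-142388077), Lamp1 on the plus strand (chr8:13158911-13159210), Atp6v0d1 on the minus strand (chr8:105566015-105566314) and Ctss on the plus strand (chr3:95526536-95526835).
Ctsd: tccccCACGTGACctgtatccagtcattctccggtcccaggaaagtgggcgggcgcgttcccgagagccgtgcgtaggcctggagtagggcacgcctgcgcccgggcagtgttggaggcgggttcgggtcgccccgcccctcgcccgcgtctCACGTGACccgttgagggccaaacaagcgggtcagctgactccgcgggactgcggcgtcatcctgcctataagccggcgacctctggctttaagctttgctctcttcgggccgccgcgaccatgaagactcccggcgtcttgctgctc
Lamp1: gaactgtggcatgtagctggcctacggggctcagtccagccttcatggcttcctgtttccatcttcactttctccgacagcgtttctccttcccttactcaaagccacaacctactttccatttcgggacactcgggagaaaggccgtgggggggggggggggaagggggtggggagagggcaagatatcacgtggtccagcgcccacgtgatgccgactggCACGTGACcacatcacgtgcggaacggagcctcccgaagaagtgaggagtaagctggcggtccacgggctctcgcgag
Atp6v0d1: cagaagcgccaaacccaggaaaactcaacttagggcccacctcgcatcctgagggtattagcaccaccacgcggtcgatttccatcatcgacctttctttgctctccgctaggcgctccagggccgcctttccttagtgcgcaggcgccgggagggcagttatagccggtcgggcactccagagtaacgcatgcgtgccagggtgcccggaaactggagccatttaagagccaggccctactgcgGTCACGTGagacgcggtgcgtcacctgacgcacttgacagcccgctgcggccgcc
Ctss: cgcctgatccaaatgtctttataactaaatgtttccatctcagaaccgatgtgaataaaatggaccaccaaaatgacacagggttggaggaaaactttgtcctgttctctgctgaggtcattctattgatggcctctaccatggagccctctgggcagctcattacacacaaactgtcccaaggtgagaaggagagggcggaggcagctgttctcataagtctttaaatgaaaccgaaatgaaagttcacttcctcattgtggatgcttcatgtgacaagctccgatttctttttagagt
In Ctsd the element stands at both -245 and -98 from the start of transcription, in Lamp1 at -28 and in Atp6v0d1 at -5. A match shows only that the letters are there. Tfeb itself, the factor that binds such elements, was not called in any comparison with ActD sham relative to the median gene: it was at 34.5 CPM in standard sham microglia, 37.4 in ActD sham, 16.0 at 3 dpi and 23.1 at 14 dpi. Without centring its log2 ratio of -1.22 at 3 dpi passed the fold. Its transcript level does not measure the amount of the protein in the nucleus.

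Summed, the 38 genes made up 31673 CPM of microglial RNA in standard sham, 37556 in ActD sham, 38427 at 3 dpi and 47382 at 14 dpi. The log2 ratio over ActD sham was 0.03 at 3 dpi (95% counting interval 0.03 to 0.04) and 0.34 at 14 dpi (0.33 to 0.34). In macrophages the sum was 17245 CPM in standard sham, 21088 in ActD sham, 49709 at 3 dpi and 32226 at 14 dpi, with log2 ratios over ActD sham of 1.24 (1.22 to 1.25) and 0.61 (0.59 to 0.63). Sham microglia thus had the higher share of their RNA in these genes, and at 3 dpi macrophages had. Per cell, the 38 genes gave 397 UMIs in ActD sham microglia and 898 at 3 dpi, when the whole microglial cell gave 10583 and 23379 UMIs. Under the alternative groupings, filters and scalings tried, the macrophage log2 ratio at 3 dpi lay between 0.64 and 2.0035. Its value at 14 dpi lay between -0.0087, when clusters left without a name were added to their best class, and 1.23. The microglial ratio at 3 dpi lay between -0.683, when UMIs of every gene were taken off at the B cell rate, and 0.54, and integration of the libraries in Seurat gave -0.0039, so its sign is uncertain.

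**Figure D1:**
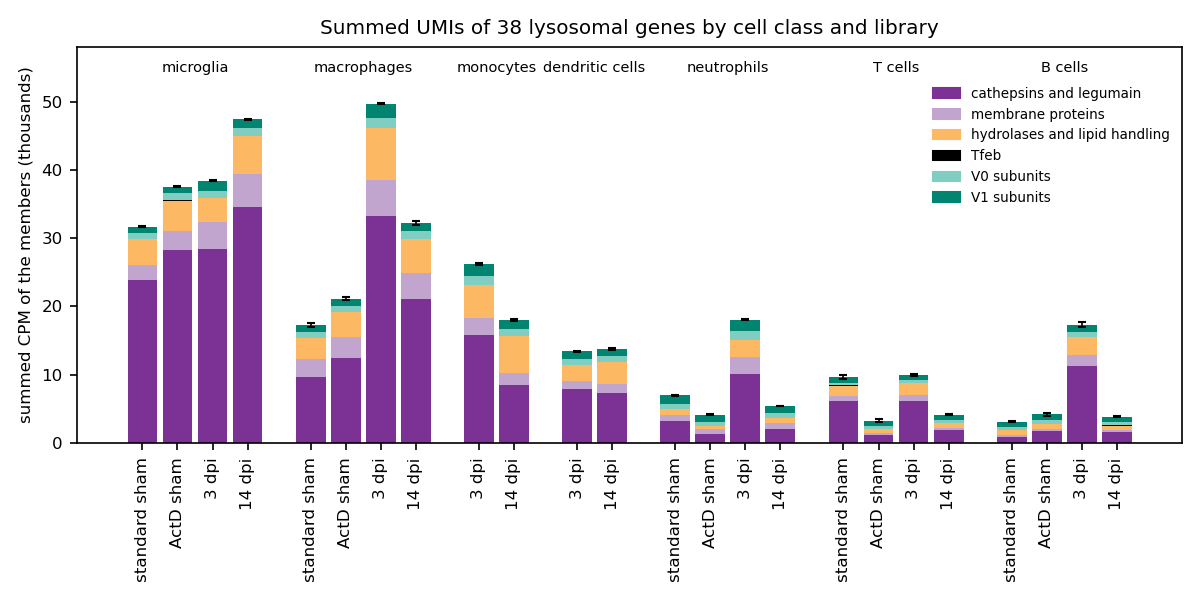
Stacked bars of the summed level of the 38 genes (vertical axis, scaled CPM from 0, 1 unit being 1000 CPM) in each cell class of each library (horizontal axis), coloured by group of genes, with the 95% counting interval of the sum as an error bar. The macrophage bar goes from 21088 CPM in ActD sham to 49709 at 3 dpi, and the B cell bar from 4168 to 17342.

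The share of UMIs taken by the set was also higher in the 3 dpi than in the ActD sham library in lymphocytes and neutrophils. B cells were at 3124, 4168, 17342 and 3833 CPM in standard sham, ActD sham, 3 dpi and 14 dpi, and T cells at 9656, 3236, 9985 and 4104. The 3 dpi T cells were thus close to those of standard sham in pooled CPM only. In single T cells the median share of UMIs in the set was 0.384% in standard sham and 0.272% in ActD sham. The lower quartile of that share at 3 dpi, 0.832%, lay above the upper quartile of standard sham, 0.695%. Microglial markers summed to 2244 CPM in standard sham T cells, 256 in ActD sham and 385 at 3 dpi. Markers of injury macrophages summed to 909, 849 and 3684 CPM in the T cells of the same libraries. In B cells they summed to 233, 66.3 and 7409 CPM, and in neutrophils, in which they were not higher at 3 dpi, to 11934, 7410 and 7122. The part of RNA from either cell type in the pooled values was not tested. Neutrophils, which do engulf particles, were at 6958, 4160, 18077 and 5409 CPM. Per cell, neutrophils held 44.98 UMIs of the set at 3 dpi against 82.3 in ActD sham, while all their UMIs numbered 2488 and 19785 per cell. At 3 dpi B cells read 3525 CPM of Ctsd, against 133 in ActD sham, 3130 of Ctsb against 94.7, and 1064 of Ctsl against 30.8. Those B cells had a median of 2534.5 UMIs and numbered 136. At 3 dpi 2 of the 38 genes in macrophages, 6 in microglia, 7 in monocytes and 22 in dendritic cells lay below the B cell level of the same library. Subtracting from every class the members' UMIs at the B cell rate, an alternative chosen after seeing these values, left the macrophage log2 ratio at 3 dpi at 1.31 and changed that of dendritic cells at 14 over 3 dpi from 0.04 to 0.62. Subtracting every gene at that rate, tried first, lowers the total. It gave 0.64 in macrophages and -0.683 in microglia at 3 dpi. Either subtraction also takes off RNA that B cells make themselves. How much of a class's level was RNA from other cells was not tested.

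Microglia at 3 dpi had higher levels of cathepsins B, D and L, of Cd63 and Cd68 and of 7 pump subunits, and a lower level of cathepsin S. For cathepsins B, D and L the B cells of the 3 dpi library also read more than those of ActD sham, as given above. So did they for the 4 membrane proteins summed, at 1596 CPM against 239. The part of this in the microglial values was not tested. Cathepsins K and E were also called higher, but at 3.33 and 3.72 CPM they lay below the B cells of that library, at 11.8 and 4.73. Those B cells held 423025 UMIs in all, so levels this low in them rest on few UMIs. Of 37 genes tested, 16 were called higher and 1 lower, in a comparison in which 37.6% of 11166 genes were called (21.1% higher and 16.5% lower). Their median log2 ratio was 0.79 above that of all genes. Without centring on the median gene 5 were called higher and 2 lower. At 14 dpi 15 of 37 were called higher and none lower, against 14.5% of 11321 genes in either direction (9.13% higher, 5.34% lower), with a median 0.86 above that of all genes, and without centring 4 were called higher. The 15 include Atp6v0d2, which had no UMI in ActD sham microglia and was tested through its 14 dpi UMIs alone. Markers of injury macrophages summed to 526 CPM in ActD sham microglia, 5691 at 3 dpi and 3879 at 14 dpi, with UMIs for all 9, and to 30495 CPM in the macrophages of the 3 dpi library. Their part in the microglial values was not tested. The median depth of a microglial cell was 9538.5 UMIs in ActD sham, 20992 at 3 dpi and 10245 at 14 dpi.

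Among the proteases, Ctsd (chr7:142375911-142388038, minus strand), an aspartic protease, stood at 6983 CPM in standard sham microglia, 6871 in ActD sham, 11864 at 3 dpi and 13596 at 14 dpi. Both injured libraries lay above both shams, and the log2 ratios over ActD sham were 1.34 and 1.5 above that of the median gene. Ctsb (chr14:63122462-63145923, plus strand), a cysteine protease, was at 1731, 1782, 4809 and 3695 CPM, 1.98 and 1.56 above the median gene. Ctsl (chr13:64359337-64370890, minus strand), another cysteine protease, was at 1641, 1559, 3374 and 2064 CPM, which passed the fold at 3 dpi (1.66) and lay just inside it at 14 dpi (0.92). Ctsd took 18.3% of the microglial UMIs of the set in ActD sham, 30.9% at 3 dpi and 28.7% at 14 dpi. Each of Ctsd, Ctsb and Ctsl was also higher in the B cells of the 3 dpi library than in those of ActD sham.

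Cathepsin S went the other way at 3 dpi. Ctss (chr3:95526786-95556403, plus strand), a cysteine protease that stays active at neutral pH, was at 7857 CPM in standard sham microglia, 10999 in ActD sham, 2580 at 3 dpi and 8160 at 14 dpi. The 3 dpi library lay below the other 3, at -1.54 relative to the median gene, and the 14 dpi library lay at 0.08. Its share of the set's UMIs was 29.3% in ActD sham, 6.71% at 3 dpi and 17.2% at 14 dpi. Lgmn, an asparaginyl endopeptidase that processes other cathepsins, was at 2713, 3219, 1831 and 1628 CPM, within the fold at both times (-0.26 and -0.47). Ctsz, an exopeptidase, was at 1516, 1813, 2238 and 3030 CPM and was called at 14 dpi (1.25), as was Ctsa, which shields sialidase and galactosidase in a complex, at 496, 542, 562 and 926 CPM (1.28). Ctsc and Ctsh stayed inside the fold at both times.

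**Figure D2:**
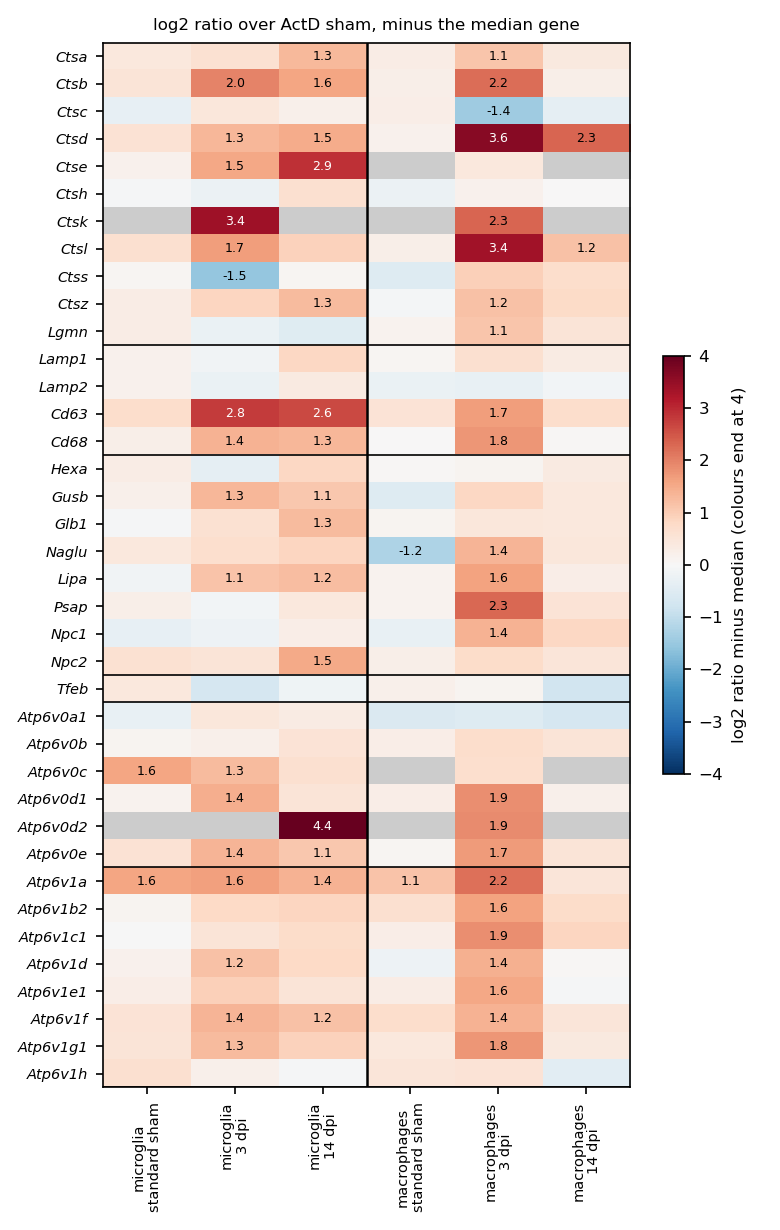
Heat map of the log2 ratio over ActD sham minus that of the median gene, for the 38 genes (rows, with lines between the groups of genes) in microglia and macrophages of the other 3 libraries (columns). Values are printed where a gene passed the fold, grey cells were not tested, the colours end at 4, and Atp6v0d2 in microglia at 14 dpi is drawn at the bound for 3 UMIs in sham; blue cells with a value are Ctss in microglia and Ctsc in macrophages at 3 dpi, and Naglu in standard sham macrophages.

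Of the membrane proteins, the tetraspanin Cd63 had a microglial level of 464 CPM in standard sham, 417 in ActD sham, 1977 at 3 dpi and 1819 at 14 dpi, 2.80 and 2.64 above the median gene. When every cell was thinned to 1000 UMIs, 28.6% of ActD sham microglia and 81.2% and 74.3% of those at 3 and 14 dpi had a Cd63 UMI. Cd68, a heavily glycosylated protein used as a mark of phagocytes, was at 436, 546, 977 and 954 CPM (1.39 and 1.32). The 2 structural proteins of the lysosomal membrane behaved unlike them: Lamp1 was at 908, 1182, 739 and 1487 CPM and Lamp2 at 405, 530, 302 and 480, and neither passed the fold at either time.

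The glycosidase Gusb was called higher at both times, with microglial levels of 159, 204, 349 and 304 CPM (1.32 and 1.09). So was Lipa, the acid lipase that splits cholesteryl esters, at 60.3, 97.7, 147 and 162 CPM (1.14 and 1.24). Npc2, which hands cholesterol to the membrane protein NPC1, was within the fold at 3 dpi and past it at 14 dpi, at 903, 871, 859 and 1732 CPM (0.53 and 1.5), and so was the galactosidase Glb1 at 34.0, 52.0, 54.0 and 87.9 CPM (0.60 and 1.27). Hexa, Naglu, Npc1 and Psap, the precursor of the saposins that help to degrade sphingolipids, were within the fold at both times.

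All 13 pump subunits tested in microglia at 3 dpi lay above the median gene. Of them, 7 passed the fold, in a comparison in which 21.1% of all genes were called higher. The 7 were Atp6v0c, Atp6v0d1 and Atp6v0e of the V0 sector and Atp6v1a, Atp6v1d, Atp6v1f and Atp6v1g1 of the V1 sector. Of these, Atp6v0c and Atp6v1a were also called higher in standard sham over ActD sham, so the ActD sham library was low for each beside these 2 libraries. Standard sham and 3 dpi have Cell Ranger 3.0.1 in their headers, and ActD sham and 14 dpi have 3.1.0. The comparison of 3 dpi with ActD sham thus crosses versions and that of 14 dpi does not, and the part of this was not tested. At 14 dpi 4 of 14 passed the fold, namely Atp6v0d2, Atp6v0e, Atp6v1a and Atp6v1f, while Atp6v0c was within it. Atp6v1a, the catalytic subunit, was at 107 CPM in standard sham microglia, 52.4 in ActD sham, 111 at 3 dpi and 96.7 at 14 dpi. The injured libraries were thus near the standard sham level, and the ActD sham library was the one that stood low. Atp6v0e was at 203, 201, 351 and 296 CPM, with both shams alike and both injured libraries above them, and Atp6v1f was at 224, 224, 396 and 357. Atp6v0b, part of the proton-carrying ring, was at 457, 617, 489 and 632 CPM and within the fold at both times. Summed over all 14, the pump stood at 1740 CPM in standard sham, 2009 in ActD sham, 2604 at 3 dpi and 2421 at 14 dpi.

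**Figure D3:**
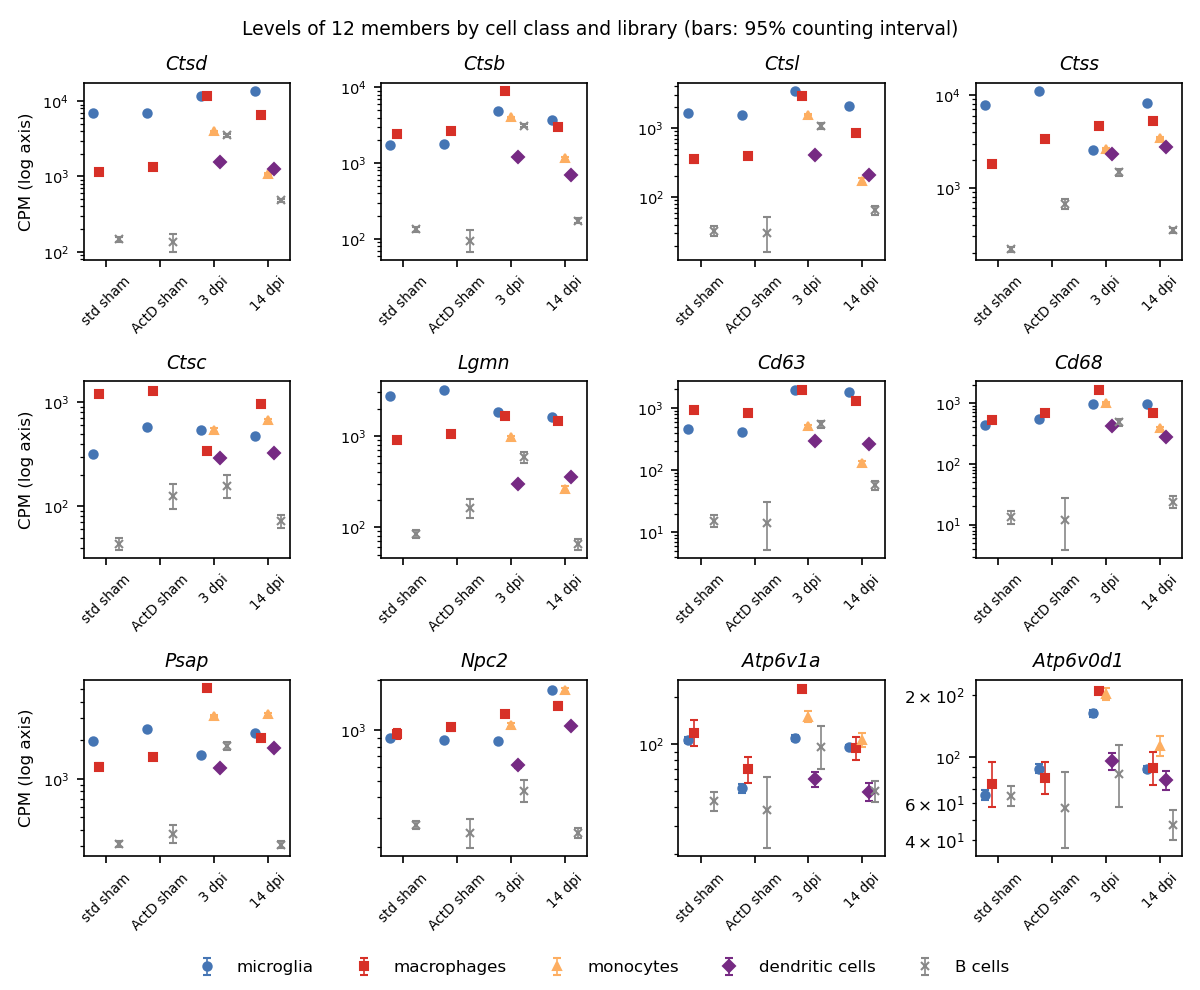
Level of 12 of the genes (vertical axes, CPM on log axes that differ between panels) by library (horizontal axis) in microglia, macrophages, monocytes, dendritic cells and B cells, with 95% counting intervals as bars. Ctsd in B cells goes from 133 CPM in ActD sham to 3525 at 3 dpi, when microglia and macrophages are at 11864 and 11814.

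In macrophages at 3 dpi, 23 of the 38 genes were called higher and 1, Ctsc, lower, against 36.0% of 11129 genes called in either direction and 17.9% called higher (18.1% lower). Their median log2 ratio was 1.37 above that of all genes, and 16 were higher and 1 lower without centring. Under the other alternatives 18 to 29 were called. At 14 dpi 2 of 34 tested were called, Ctsd and Ctsl, both higher, against 6.21% of 6507 genes (2.75% higher, 3.46% lower), but with finer clustering, which named 117 macrophages at 14 dpi, 23 were called, and 17 were with a looser cell filter (337 macrophages) or with the libraries integrated (384). The share of all genes called under these alternatives is not given, so these counts do not show a change of the members apart from other genes. The clusters compared at 3 dpi scored highest for injury markers and those of sham for border markers, so time after injury and make-up of the class cannot be told apart. Markers of microglia, 12 in number, summed to 1507 CPM in standard sham macrophages, 3854 in ActD sham, 466 at 3 dpi and 4792 at 14 dpi, against 19187 and 8198 in the microglia of ActD sham and 14 dpi. Their part in the macrophage values, those of Ctsd and Ctsl at 14 dpi included, was not tested.

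Ctsd was at 1154 CPM in standard sham macrophages, 1316 in ActD sham, 11814 at 3 dpi and 6462 at 14 dpi, which is 3.64 and 2.34 above the median gene. Ctsl was at 352, 388, 2856 and 846 CPM (3.36 and 1.17). For both proteases the shams were alike, the 3 dpi library was highest and the 14 dpi library lay between. Ctsb was at 2414, 2629, 8932 and 3008 CPM, called at 3 dpi (2.24) and close to sham at 14 dpi (0.24). Ctss was at 1827, 3338, 4657 and 5274 CPM, 0.96 and 0.71 above the median gene and inside the fold, with the standard sham library the lowest. Ctsc, the dipeptidyl peptidase that activates serine proteases of granules, was at 1191, 1272, 342 and 962 CPM, so that the 3 dpi library alone was low (-1.42).

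The precursor Psap showed the largest change of the lipid-handling genes, from 1245 CPM in standard sham macrophages and 1470 in ActD sham to 5150 at 3 dpi, with 2083 at 14 dpi (2.29 and 0.55). Lipa was at 122, 143, 316 and 167 CPM (1.62 and 0.28) and Npc1, a cholesterol transporter of the lysosomal membrane, at 34.0, 53.9, 102 and 93 CPM (1.39 and 0.83). Hexa, Gusb, Glb1 and Npc2 were within the fold at 3 dpi. Cd63 was at 938, 833, 1928 and 1315 CPM (1.69 and 0.70) and Cd68 at 532, 685, 1661 and 684 CPM (1.75 and 0.04), while Lamp1 and Lamp2 were within the fold, as in microglia.

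In the pump, 7 of 8 V1 subunits and 3 of 6 V0 subunits were called higher in macrophages at 3 dpi, against 17.9% of all genes. None of the 12 tested was called at 14 dpi, when only 2.75% of all genes were called higher. Atp6v1a was at 119 CPM in standard sham, 69.2 in ActD sham, 227 at 3 dpi and 94.4 at 14 dpi (2.19 and 0.49). Atp6v1g1, a subunit of the stalk that holds the sectors together, was at 274, 265, 645 and 339 CPM (1.76 and 0.40), and Atp6v0d1, which joins the stalk to the V0 sector, at 74.7, 79.6, 208 and 88.7 CPM (1.86 and 0.20). For each of these the 3 dpi library lay above the other 3. The V1 sum went from 960 CPM in ActD sham to 2105 at 3 dpi and the V0 sum from 944 to 1417.

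Ctsk, Ctse and Atp6v0d2 stood at low levels in microglia and macrophages. Ctsk, cathepsin K, a collagen-degrading protease best known from osteoclasts, was at 0 CPM in standard sham macrophages, 10.4 in ActD sham, 37.9 at 3 dpi and 0.721 at 14 dpi. A Ctsk UMI was seen in 26.9% of the macrophages at 3 dpi and in 3.33% after thinning to 1000 UMIs, against 2.21% and 0.735% of the B cells of that library, at median depths of 14799 and 2534.5 UMIs. In microglia it was at 0.297, 0.468, 3.33 and 0.0235 CPM, below the 11.8 CPM of B cells at 3 dpi.

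Atp6v0d2, a V0 subunit whose form is largely that of osteoclasts and macrophages, had no UMI in the microglia of either sham and stood at 1.94 CPM at 3 dpi and 2.68 at 14 dpi, at least 3.93 on the log2 scale above a floor of 3 UMIs at the later time. Its microglial level at 3 dpi lay below that of the B cells of that library, which rests on few UMIs. In macrophages it was at 0, 6.12, 16.4 and 14.4 CPM, and a UMI of it was seen in 8.83% of the 3 dpi macrophages (1.18% thinned) and in 0.735% of the B cells beside them (0 of 136 thinned, which allows up to 2.21%). Ctse, cathepsin E, an aspartic protease outside the classical lysosome, was at 1.44, 1.87, 3.72 and 9.94 CPM in microglia and was seen in 9.54% of those at 14 dpi, or 1.09% after thinning. B cells of the 14 dpi library had Ctse in 2.47% of cells and in 0.619% thinned, at a median of 3607 UMIs.

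Within a library the level of the set varied between clusters. The genes of the set and the other lysosomal genes were left out of the genes used to cluster, and the differences are descriptions. At 14 dpi the 6 microglial clusters ran from 39021 CPM in cells led by P2ry12 and Crybb1 to 52786 in cells led by Spp1 and Lpl. The former had 8153 CPM of Ctsd and 926 of Cd63, and the latter 17675 and 2213. Ctss ran against this order, at 9867 CPM in the first and 7130 in the second. Standard sham held 97 microglia led by Spp1 and Lpl as well, with 45416 CPM of the set, 12532 of Ctsd and 1833 of Cd63, while its other 5 microglial clusters lay between 29497 and 33320 CPM. The 8 clusters of ActD sham microglia lay between 34087 and 41803 CPM.

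A cluster of 765 cells at 14 dpi, led by Gpnmb, Ms4a7 and Fabp5, scored best for microglia but was given no class name. The reason was 1 of its 10 leading genes, Ms4a7, a marker of injury macrophages, while none was a marker of microglia. It had 54021 CPM of the set, with Ctsd at 17066, Cd63 at 2639, Ctsk at 27.2 and Atp6v0d2 at 45.3 CPM. Adding unnamed clusters to the class they scored best for, an alternative chosen after seeing the data, moved the microglial log2 ratio at 14 dpi from 0.34 to 0.44 and the members called from 15 to 22. The same step turned the macrophage ratio at 14 dpi from 0.61 to -0.0087. There it added another unnamed cluster, of 281 cells led by Vcan, Ccr2 and F13a1, to the 144 macrophages, which made 425 cells.

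Macrophages at 3 dpi ran from 35294 CPM in 576 cells led by Cbr2 and Mrc1 to 58412 in 962 cells led by Gpnmb and Ahnak2. Ctsd was at 7013 CPM in the first and 16138 in the second, and Ctsc, in the opposite order, at 576 and 196. Ctsl was highest elsewhere, at 3900 CPM in 1024 cells led by Ccl24 and Cxcl1, and Ctsk at 54.3 CPM in 980 cells led by Fabp5 and Hmox1. Even the lowest of the 5 clusters lay above the 21088 CPM of ActD sham macrophages. The 2 microglial clusters at 3 dpi were at 39908 CPM, in 544 cells led by Sparc and Cd81, and 35559 CPM, in 227 cells led by the proliferation genes Top2a and Mki67, and Ctss was low in both, at 2702 and 2344 CPM.

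**Figure D4:**
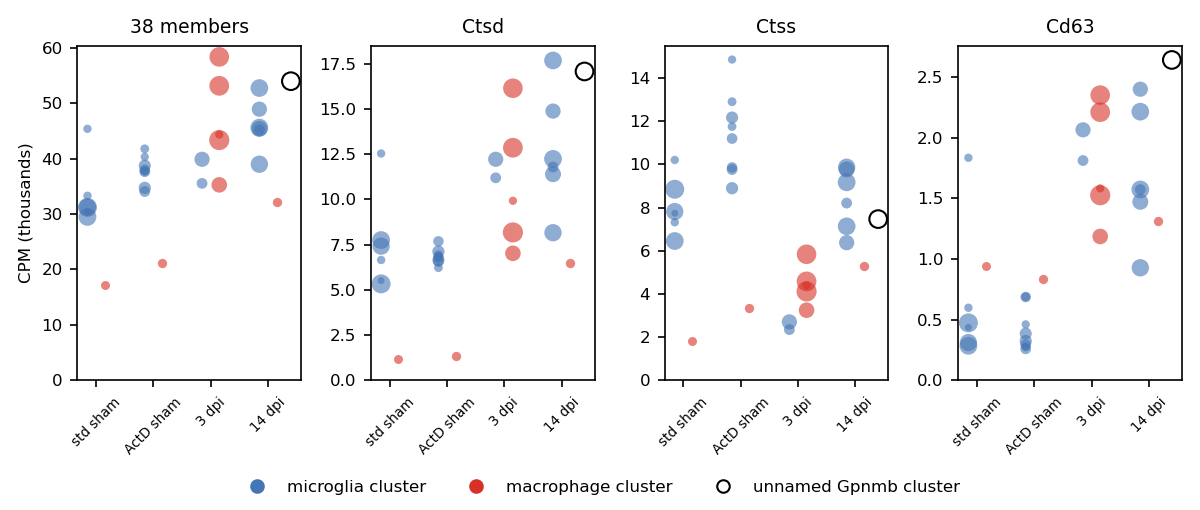
Level of the 38 genes together, Ctsd, Ctss and Cd63 (vertical axes, scaled CPM from 0, 1 unit being 1000 CPM) in each microglial and macrophage cluster of each library (horizontal axis), with a point area that grows with the number of cells. The open circle is the unnamed Gpnmb cluster at 14 dpi, at 54021 CPM of the set, and the macrophage clusters at 3 dpi reach 58412.

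Monocytes at 14 dpi had less of the set than those at 3 dpi, 18011 against 26265 CPM. Of 35 genes tested, 14 were called lower and none higher, against 23.8% of 7650 genes called (11.8% higher, 12% lower), with a median 0.78 below that of all genes. Ctsl was at 1556 CPM at 3 dpi and 174 at 14 dpi (-3.48 relative to the median gene), Cd63 at 508 and 128 (-2.30), Ctsd at 3975 and 1065 (-2.22), Lgmn at 964 and 265 (-2.18) and Ctsb at 4046 and 1152 (-2.13). Psap, at 3084 and 3187 CPM, and Npc2, at 1074 and 1755, did not follow them. At 3 dpi 7 of the 38 genes lay below the B cells of that library, among them Cd63 and Naglu, which were called lower. At 14 dpi 4 did. The B cells of the 3 dpi library also read much Ctsd, Ctsb and Ctsl, as given above, and the part of this in the monocyte values was not tested. Monocyte markers summed to 7341 CPM at 3 dpi and 16071 at 14 dpi, and markers of injury macrophages to 25738 and 16837, so the cells of the class were not alike at the 2 times. The part of either in the result was not tested. With finer clustering the log2 ratio of the sum was 0.0133 in place of -0.54, and 7 genes were called. With every gene taken off at the B cell rate it was 0.24, with 9 higher and 7 lower.

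Dendritic cells, which present antigen, had 13401 CPM of the set at 3 dpi and 13760 at 14 dpi, and 2 of 35 genes tested were called, both lower, against 9.87% of 8768 genes (4.76% higher, 5.11% lower). They were Ctsl, at 411 and 206 CPM (-1.13), and Naglu, at 28.2 and 15.2 CPM (-1.03). Ctss, the protease that trims the invariant chain of MHC class II, was at 2326 and 2728 CPM (0.09). As 22 of the 38 genes lay below the B cell level at 3 dpi, the change from 3 to 14 dpi in this class is uncertain, and its sign for the sum turned under 7 alternatives. Most cells of the class at 3 dpi were 1 cluster of 495, led by the MHC class II genes H2-Eb1 and H2-Aa, with no dendritic marker among its 10 leading genes. The main cluster at 14 dpi, of 416 cells, was also led by such genes but had the markers Cd209a and Clec10a among them. The class was thus not marked alike at the 2 times, and the part of this in the result was not tested.

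From 3 to 14 dpi, microglia had 3 genes called higher (Ctss, Hexa and Ctse) and 1 lower (Ctsk) of 38, against 23.5% of 11408 genes (9.98% higher, 13.5% lower). Macrophages had 2 higher (Ctsc and Ctse) and 14 lower of 38, against 30% of 11039 genes (14.6% higher, 15.4% lower), the lower ones including Ctsb, Ctsd, Ctsl, Psap, Cd68, Lipa and 7 of the 14 pump subunits. The macrophages of the 2 times were again clusters with different best scores.

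Between classes of 1 library, Ctsd, Ctsl, Ctss and Lgmn were lower in macrophages than in microglia of ActD sham, by 2.13, 1.75, 1.47 and 1.35 on the log2 scale relative to the median gene, while Ctsc, Cd63 and Atp6v0c were higher. That made 7 of the genes called, with 28 within the fold and 3 not tested. Of all 10380 genes tested, 18.9% were called (9.26% higher, 9.65% lower). At 3 dpi no gene was called lower in macrophages, 8 were called higher and 30 lay within the fold. The share of 11554 genes called was 19.8% (8.78% higher, 11.1% lower). The 8 were Ctsb, Ctsk, Ctss, Lipa, Psap, Atp6v0d2, Atp6v1a and Atp6v1e1. For Ctss the order of the classes was thus opposite, 10999 CPM in microglia and 3338 in macrophages of ActD sham against 2580 and 4657 at 3 dpi. At 14 dpi Ctsd, Ctsl and Ctsz were called lower and Atp6v0d2 higher, with 33 genes within the fold and 1 not tested. The share of 10805 genes called was 12.5% (6.42% higher, 6.04% lower). Taken in either direction, the counts of these comparisons of macrophages with microglia lay near the shares of all genes. Dendritic cells at 3 dpi had 25 genes called lower than macrophages and 1, Ctse, higher, against 24.4% of 11197 genes (11.7% higher, 12.7% lower).

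In standard sham, microglia had 2 of 36 genes tested called over ActD sham, Atp6v0c and Atp6v1a, both higher, against 15.5% of 10937 genes (8.76% higher, 6.78% lower). With every gene taken off at the B cell rate 24 were called. In macrophages 2 of 34 were called, Atp6v1a higher (1.15) and Naglu lower (-1.22), against 13.4% of 5773 genes (7.24% higher, 6.13% lower). Of the alternatives, 4 gave 5 called, 4 of them lower (finer clustering, the looser filter, doublets kept and integration), and taking off B cell UMIs gave 7 for the members alone and 6 for every gene. The summed log2 ratio of standard over ActD sham was -0.25 in microglia and -0.29 in macrophages, and it turned positive in both when libraries were scaled by TMM (0.30 and 0.06). Ctss was lower in standard than in ActD sham in both classes, at 7857 against 10999 CPM in microglia and 1827 against 3338 in macrophages, within the fold in each.

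Other genes of lysosomal biology, 81 in all, were listed as proteases, cathepsin inhibitors, hydrolases, membrane proteins, further V-ATPase subunits, and regulators and sorting receptors. In microglia their summed level was 70271 CPM in standard sham, 76095 in ActD sham, 14289 at 3 dpi and 41016 at 14 dpi, whereas that of the 38 genes stayed between 31673 and 47382. Cst3 alone gave 52607 CPM of that sum in ActD sham, 2844 at 3 dpi and 21960 at 14 dpi. Most of the fall in the sum from ActD sham to 3 dpi was thus in this 1 gene. At 3 dpi 21 of 72 tested were called higher and 13 lower in microglia, and at 14 dpi 18 of 70 higher and 3 lower. In macrophages 24 of 71 were higher and 13 lower at 3 dpi, and 5 of 59 higher and 1 lower at 14 dpi. The background shares are those given above for each comparison.

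Inhibitors of cathepsins moved in both directions. Cst3, cystatin C, a secreted inhibitor of cysteine proteases, was at 52607 CPM in ActD sham microglia, 2844 at 3 dpi and 21960 at 14 dpi, 3.66 below the median gene at 3 dpi. Cst7, cystatin F, an inhibitor that acts inside the endolysosome, was at 26.0 CPM in ActD sham and 587 at 14 dpi, 5.01 above it. Ctsf, a cathepsin outside the set, went from 205 CPM in ActD sham microglia to 31.6 at 3 dpi (-2.15). The cytosolic serpin Serpinb6a was at 8.13 CPM in ActD sham, 90.2 at 3 dpi and 33.4 at 14 dpi (4.02 and 2.55). In macrophages Ctsf went from 104 to 2.11 CPM at 3 dpi (-5.15) and Cst3 from 10773 to 1004 CPM (-2.95).

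Gpnmb, a membrane glycoprotein of loaded lysosomes, had no UMI in ActD sham microglia or macrophages and stood at 193 and 1869 CPM at 3 dpi and at 107 and 146 CPM at 14 dpi. Acp5, an acid phosphatase, went from 0.234 to 20.6 CPM in microglia at 3 dpi (7.01) and from 1.22 to 158 CPM in macrophages (7.49). Igf2r, which sorts hydrolases tagged with mannose 6-phosphate into the lysosome, went from 0.877 to 29.3 CPM in microglia at 3 dpi (5.61) and from 1.84 to 60.4 in macrophages (5.51). The galactosidase Gla went from 6.20 to 82.1 CPM in microglia (4.28) and from 9.18 to 145 CPM in macrophages (4.46). Galns, a sulfatase, was at 6.74 and 70.6 CPM in ActD sham and 3 dpi macrophages (3.87), and the peptidase Cpq at 74.1 and 9.64 CPM (-2.47).

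At 14 dpi the lowest of the other genes in microglia were Cd164, a sialomucin, at 87.2 CPM against 287 in ActD sham (-1.21), and Atp6v0a2, a pump subunit found mainly in endosomes and Golgi, at 54.2 against 159 (-1.04). Igf2r and Gla were high in microglia at 14 dpi, at 16.4 and 36.3 CPM (4.74 and 3.06). In macrophages at 14 dpi Cst7 had 218 CPM and no UMI in ActD sham, and the tetraspanin Cd9 had 830 against 268 CPM (1.68). Cstb, at 285 against 154 CPM (0.94), lay just inside the fold, Scpep1 (-0.61) and Slc11a1 (-0.51) also lay inside it, and Plbd1, a phospholipase-like protein, was lower at 38.2 against 162 CPM (-2.04).

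**Figure D5:**
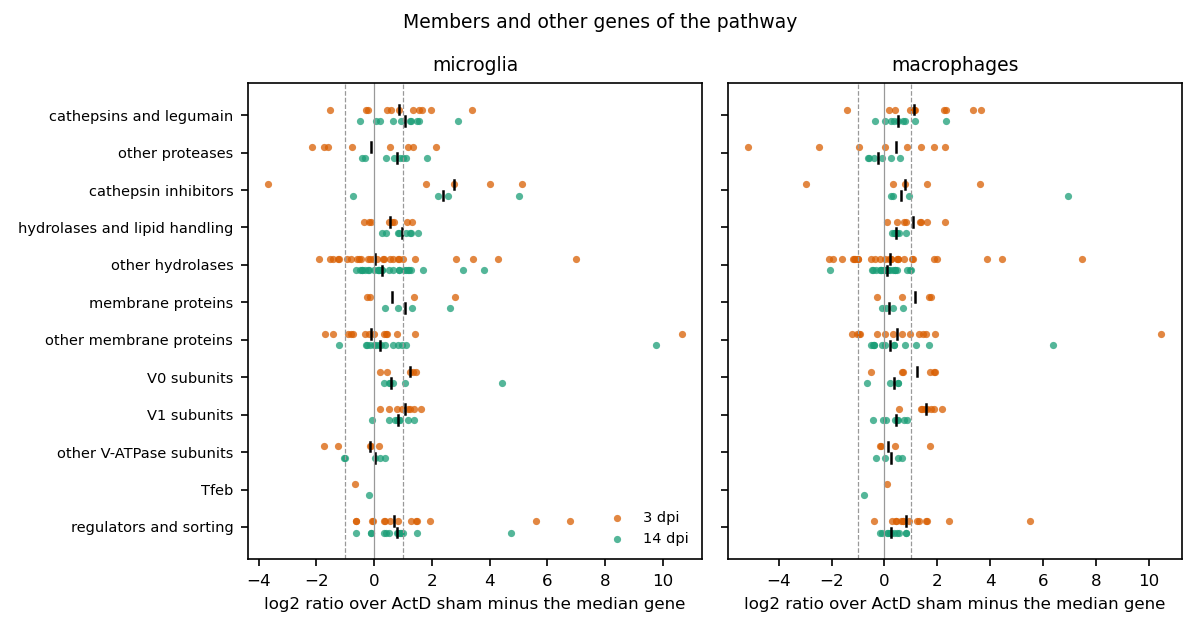
Log2 ratio over ActD sham minus that of the median gene (horizontal axes, whose ranges differ) for every tested gene of the 38 and of the other 81, by list (rows), in microglia and macrophages at 3 and 14 dpi, with the list median as a black bar and the fold as dashed lines. Genes with no UMI in ActD sham are drawn at the bound for 3 UMIs, among them Gpnmb at the far right, and Cst3 lies at -3.66 in microglia at 3 dpi.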

How the data were processed

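Each deposited matrix held UMI counts per gene and cell barcode, made by the authors with Cell Ranger on mm10 (software version 3.0.1 in the file headers of standard sham and 3 dpi, 3.1.0 in those of ActD sham and 14 dpi). The filter of the study was applied (600 genes or more, mitochondrial share up to 10%), cells with Itgam together with a lymphocyte marker such as Cd3e or Klrb1c were removed, and doublets were called with Scrublet (291, 42, 774 and 931 removed). Each library was clustered alone in scanpy 1.11.5 (2000 variable genes, less the lysosomal and mitochondrial genes among them, 30 principal components, Leiden resolution 1.0), and clusters were named from marker lists. Thresholds for naming were set after the clusters were seen, and the members, gene lists and markers were chosen with earlier results of these data known. Between 177 and 1223 cells per library stayed unnamed.

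UMIs were summed per class and library and intervals were exact (Poisson for levels, binomial for shares and for the split of 2 counts). A gene with no UMI in a library was set to a floor of 3 UMIs for its bound. Values in every library were given for members at least 2 on the log2 scale from the median gene and for the 2 with the largest CPM of each group in ActD sham microglia, and for other members as examples; outside the 38, the 5 largest and 3 smallest ratios with at least 200 UMIs were named, apart from 1 gene that is not reported here. Ratios are Python 3.11.15 and scipy 1.17.1 computations, checked on simulated counts. Alternatives were another resolution, looser and stricter cell filters, doublets kept, Seurat 5.3.0 integration, edgeR 4.0.16 TMM scaling, equal weight per cell, UMI minimums of 20 and 200, and no centring, and after seeing the data unnamed clusters added and B cell UMIs taken off for the members or for every gene.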

Additional observations from a re-analysis of the deposited data

Results flagged for a closer look

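Microglia and macrophages lay on opposite sides of the median gene, beyond their counting intervals and with at least 1 of the classes past the fold, for 6 comparisons of a gene with ActD sham. With 1 library per group the difference between the classes was not tested in any of them, and this criterion was loosened after a stricter one had given nothing. The difference, microglia minus macrophages on the log2 scale, was -2.5 for Ctss at 3 dpi (-1.54 and 0.96), -2.41 for Psap (-0.12 and 2.29), -1.58 for Npc1 (-0.19 and 1.39) and -1.37 for Lgmn (-0.26 and 1.11). The other 2 went the other way: Ctsc at 3 dpi, with 1.87 (0.45 and -1.42), and Naglu in standard sham, with 1.65 (0.43 and -1.22). In the same 3 dpi library B cells read 1466 CPM of Ctss, 1806 of Psap, 582 of Lgmn, 156 of Ctsc and 47.3 of Npc1, and the Psap level of microglia (1535 CPM) lay below that of B cells. The Naglu value rests on 15.8 CPM in 127 standard sham macrophages.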

How the results depend on the processing

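No paired analysis was possible because each group is 1 library. Values below are log2 ratios of the summed level in the order microglia (standard sham, 3 dpi, 14 dpi over ActD sham), macrophages (the same), monocytes and dendritic cells (14 over 3 dpi), leaving out those that moved by less than their counting interval; the values reported are -0.25, 0.03, 0.34, -0.29, 1.24, 0.61, -0.54 and 0.04. With clustering resolution 2.0 they were -0.2077, 0.0729 and 0.3217 in microglia, -0.4704, 1.3042 and 1.2334 in macrophages, 0.0133 in monocytes and -0.1195 in dendritic cells. A looser cell filter gave -0.2276, 0.0677, 0.3886, then -0.579, 1.2624, 1.1301, then -0.6105 and -0.3253. A stricter filter gave -0.2953, 0.0803, 0.3295 in microglia, -0.3337 in standard sham macrophages, -0.6368 and -0.3189, and named no macrophages at 14 dpi. Keeping doublets gave 0.0492 and 0.3458 in microglia after injury, -0.6337, 1.0197 and 0.4595 in macrophages, -0.3954 and -0.4374. Integration in Seurat gave -0.2161, -0.0039, 0.4078, then -0.5148, 1.313, 1.1134, then -0.7566 and -0.081. TMM scaling gave 0.299, 0.5378, 0.8991, then 0.0577, 2.0035, 0.6733, then -0.8423 and -0.0976. Equal weight per cell gave -0.2576, 0.0706, 0.3012 in microglia, 1.1664 and 0.3955 in macrophages after injury, and -0.0279 in dendritic cells.

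Chosen after seeing the data, adding unnamed clusters gave -0.1961, 0.1019, 0.4444 in microglia and 1.2003 and -0.0087 in macrophages after injury, and taking off B cell UMIs gave -0.272, 0.0462, 0.3716, then -0.3892, 1.3074, 0.6662, then -0.4071 and 0.6222. Taking them off for every gene, the form tried first, gave -0.0959, -0.683, 0.2934, then 0.051, 0.6405, 0.7495, then 0.2391 and 1.149, with 24, 18 and 27 members called in microglia, 6, 18 and 5 in macrophages, 16 in monocytes and 14 in dendritic cells. By construction both forms also take off what B cells make themselves. Under the others, the number of members called moved by over 1.5 times in macrophages of standard sham (2 as reported; 5 at resolution 2.0, with the looser filter, with doublets or integrated; 1 with the stricter filter, with at least 200 UMIs or without centring; 7 with B cell UMIs off), in macrophages at 14 dpi (2; 23 at resolution 2.0; 17 with the looser filter or integrated; 1 with equal weight), in monocytes (14; 7 at resolution 2.0), in dendritic cells (2; 7 looser, 6 stricter, 8 with doublets, 12 with B cell UMIs off, 0 without centring), and in microglia (2 in standard sham, 6 with B cell UMIs off; 17 at 3 dpi and 15 at 14 dpi, 7 and 4 without centring). Why these moved was not tested, and the share of all genes called under each alternative is not given beside them. The macrophage difference at 3 dpi kept its direction under every alternative run.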
